A study of Mus musculus with 15 samples.

Results

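The 8 mouse genes Dnmt1, Dnmt3a, Dnmt3b, Uhrf1, Tet1, Tet2, Tet3 and Tdg, which encode the writers and erasers of cytosine methylation, were followed through the conversion of fibroblasts into muscle cells. They were chosen by name and not by any measured value, though earlier results of these data were known. Out of 35675 genes with a matched transcript, 19331 passed the filter on low counts, all 8 among them. Poly-A RNA was sequenced from 15 cultures of mouse embryonic fibroblasts (MEFs), as 3 MEF lines in each of 5 conditions. Each line was derived from a single embryo, and the same 3 lines were used in every condition, so that replicates 1, 2 and 3 stand for lines 1, 2 and 3. All cells carried a Pax7-nGFP reporter transgene on a mixed C57BL6;DBA2 background.

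The first condition, MEFs, received no transfection and was kept in iMPC medium, and the sources give its collection both as day 10 and as the start. If the start holds, transfection and days in culture cannot be told apart in any comparison with MEFs. The other 4 conditions were transfected 4 times with synthetic mRNA for MyoD, the transcription factor that commits cells to muscle, with the interferon-binding protein B18R in the medium, and were collected at day 10, so that MyoD, the transfection itself and B18R cannot be told apart. In +MyoD the mRNA was given alone. In MyoD + F/R/C the medium also held forskolin, which raises cAMP, RepSox, which inhibits the TGF-β receptor, and CHIR99210, which inhibits the kinase GSK3. In MyoD + F/R/C + SP the JNK inhibitor SP600125 was added to these, and in MyoD + F/R/C + CP the JAK inhibitor CP690550, and these 3 conditions are also written here as F/R/C, SP and CP. Libraries held 29393872 to 41885769 estimated counts.

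DNA methylation of CpG sites is copied at each cell division by Dnmt1, which the hemimethylated-DNA reader Uhrf1 brings to newly replicated DNA, and it is set at new sites by Dnmt3a and Dnmt3b. The dioxygenases Tet1, Tet2 and Tet3 oxidise 5-methylcytosine, and the glycosylase Tdg cuts out some of the oxidised bases, which base excision repair then replaces with plain cytosine. Where cells divide without maintenance, the mark is diluted. Only transcripts of these enzymes were measured here, not methylation itself, and in bulk cultures fewer cells of a type and less RNA per cell cannot be told apart.

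The cultures were checked against marker lists. In MEFs all 10 fibroblast markers were detected, with a summed level of 9222 to 9942 TPM (kallisto's measure of abundance per transcript length), and in the transfected conditions the sum was at least 10997 TPM. Of these 10 markers, 9, 8, 7 and 8 were called higher than in MEFs in +MyoD, F/R/C, SP and CP, and 0, 2, 2 and 2 lower, so that most fibroblast markers were higher after transfection and not lower. The collagen gene Col3a1 had a log2FC of 4.34 in +MyoD (adjusted p = 2.1e-07), and the matrix proteoglycan genes Lum and Dcn had 7.60 and 6.34 with F/R/C (adjusted p = 2.0e-07 and 3.7e-08). The 2 that were lower in each F/R/C condition were Vim and Fn1. All 16 muscle differentiation genes were called higher than in MEFs in each of the 4 transfected conditions, with a median log2 fold change (log2FC) of 7.92 in +MyoD and 9.80 in MyoD + F/R/C + CP. Of 10 satellite cell genes, 2 were called higher in +MyoD, 6 in MyoD + F/R/C and 9 in each condition that held SP or CP. Of all genes, 22.8, 26.6, 24.5 and 24.9% were called higher than in MEFs in +MyoD, F/R/C, SP and CP. Tested directly against F/R/C, no satellite cell gene was called with SP or CP, where 0% and 0.0362% of all genes were called. Pax7 had a log2FC of 3.86 with SP (adjusted p = 0.35) and 3.90 with CP (adjusted p = 0.10) there. Pluripotent and germ cell markers summed to at most 3.48 TPM in any library and Pou5f1 was at 0 in all of them. Melanocyte markers summed to 2.37 to 3.46 TPM in MEFs and 31.3 to 57.2 TPM with CP. Macrophage and blood cell markers lay between 17.4 and 41.2 TPM in all libraries, endothelial markers reached 11.4 TPM with CP, and neuron markers ranged from 89.5 to 348 TPM. The neuron markers Tubb3, Snap25, Syt1 and Rbfox3 were called higher than in MEFs in each F/R/C condition, and Tubb3 also in +MyoD. Map2, Stmn2, Nefl and Elavl4 were not called against MEFs. The part of these cells in the results below was not tested.

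A gene was called when the Benjamini-Hochberg adjusted p of edgeR's quasi-likelihood test, taken over all 19331 genes, was at most 0.05 and its log2FC was over 0.5 in size. The adjusted p-values below come from that fit unless an alternative is named. Against MEFs, 5 of the 8 genes were called in +MyoD, 2 higher and 3 lower, where 40.8% of all genes were called, 22.8% higher and 18.0% lower. In MyoD + F/R/C 6 were called, 3 higher and 3 lower, beside 48.2% of all genes (26.6% higher, 21.6% lower). After addition of SP 5 were called, 3 higher and 2 lower, beside 44.5% (24.5% higher, 20.1% lower), and after addition of CP 5, 3 higher and 2 lower, beside 45.5% (24.9% higher, 20.6% lower). The 3 libraries did not overlap with those of MEFs for 6, 8, 7 and 5 of the 8 genes in this order of conditions, and for 51.3%, 63.9%, 59.8% and 63.6% of all genes. These shares of all genes are large, so that the number of enzymes called says little and the direction and size for each enzyme carry the description. Their median log2FC against MEFs was -0.71, -0.54, -0.36 and 0.10 in the 4 conditions in that order, and the median of all genes was 0.12, 0.19, 0.13 and 0.14.

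**Figure D1:**
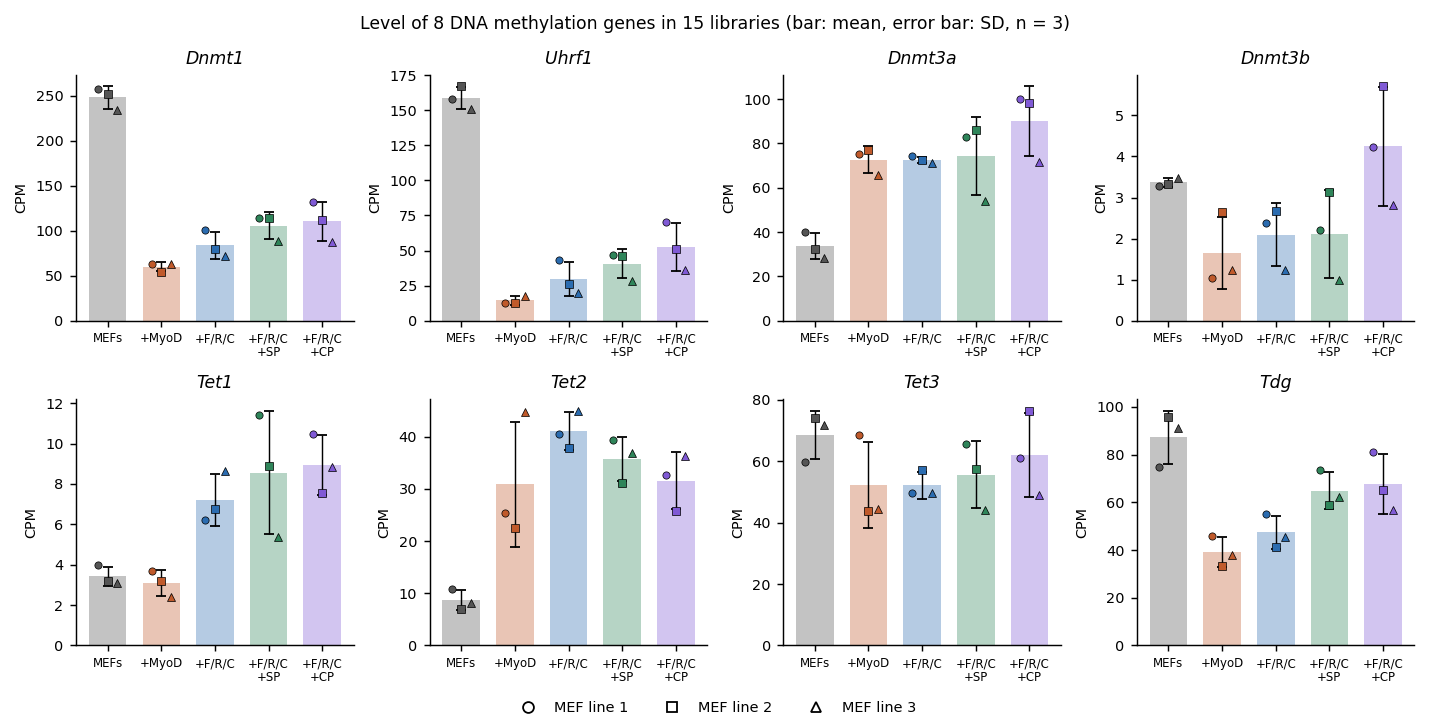
Level of each of the 8 enzymes in CPM (counts scaled to the library size, y axis of each panel) in the 5 conditions, with a bar for the mean, an error bar for the SD (n = 3) and a point for each library, shaped by MEF line. Dnmt1, Uhrf1 and Tdg have their highest mean in MEFs and their lowest in +MyoD, Dnmt3a and Tet2 have their lowest in MEFs, and Tet1 is low in both MEFs and +MyoD.

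The maintenance pair is described first, with its promoter sequences, whose part in the levels was not tested. Dnmt1 (ENSMUSG00000004099.16) lies on the minus strand of chromosome 9 from 20907209 to 20959888, and Uhrf1 (ENSMUSG00000001228.14) on the plus strand of chromosome 17 from 56303321 to 56323486, both in GRCm38. Promoters of S phase genes are known to be bound by E2F factors, and MyoD is known to bind E-boxes. Promoter windows of 300 bases, from 250 before to 50 after a RefSeq start in GRCm38.p6, were searched on both strands for the 4 words TTTCCCGC, TTTGGCGC, TTTCGCGC and TTTGCCGC, which 2.26% of all 32851 windows hold, and for the E-boxes CAGCTG and CAGGTG, held by 16.3% and 20.2% of them. A Dnmt1 window at chr9:20952574-20952873 held 2 of the E2F words and a Uhrf1 window at chr17:56304063-56304362 held 1, shown in capitals and read along the strand of the gene.
Dnmt1: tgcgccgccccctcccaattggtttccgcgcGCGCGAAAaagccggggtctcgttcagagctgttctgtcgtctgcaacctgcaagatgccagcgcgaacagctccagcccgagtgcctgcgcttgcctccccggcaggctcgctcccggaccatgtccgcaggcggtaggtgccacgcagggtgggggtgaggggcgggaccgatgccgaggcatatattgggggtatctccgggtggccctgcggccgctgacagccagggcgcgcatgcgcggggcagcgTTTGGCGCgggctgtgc
Uhrf1: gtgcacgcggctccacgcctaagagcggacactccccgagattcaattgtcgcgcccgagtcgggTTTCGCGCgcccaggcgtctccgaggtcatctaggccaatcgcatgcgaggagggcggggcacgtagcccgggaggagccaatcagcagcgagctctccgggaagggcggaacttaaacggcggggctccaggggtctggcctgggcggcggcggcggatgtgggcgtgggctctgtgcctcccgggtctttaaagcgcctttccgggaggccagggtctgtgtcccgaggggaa
Relative to the start site, the Dnmt1 words begin at -219 and 34 and the Uhrf1 word at -185. Each of these windows holds 33 CpG sites, where the median of all windows is 7. The other 2 windows of Dnmt1, the other window of Uhrf1 and the windows of the other 6 enzymes held none of the E2F words. CAGCTG or CAGGTG was found in 1 other window of Dnmt1 and in those of Dnmt3b and Tet3, and in none of the windows printed here. Other forms of the E-box were not searched, and the printed windows may hold them. A match is a description of letters, not a shown binding site.

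Dnmt1, the maintenance methyltransferase, was lower in every transfected condition than in MEFs. Its level in MEFs was 258, 252 and 234 CPM for lines 1, 2 and 3, and in +MyoD it was 62.7, 54.2 and 63.3 CPM. With F/R/C it was 101, 79.6 and 71.5 CPM, under SP 114, 115 and 88.6 CPM, and under CP 132, 112 and 87.8 CPM. No transfected library reached the lowest MEF library. The fall was largest in +MyoD, at a log2FC of -2.05 ± 0.17 (SE, adjusted p = 1.9e-07), or 4.13-fold lower, and smallest with CP, at -1.17 ± 0.16 (adjusted p = 2.6e-05), or 2.25-fold lower. Against +MyoD, Dnmt1 was higher by a log2FC of 0.81 with SP (adjusted p = 0.0019) and 0.88 with CP (adjusted p = 0.00098). With F/R/C alone the difference of 0.48 (adjusted p = 0.044) did not exceed the size of 0.5 needed for a call, although the libraries of the groups did not overlap, and it was called in 11 of 26 alternatives. The SP call was lost without line 2 (adjusted p = 0.086).

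Uhrf1, which brings Dnmt1 to replicated DNA, had the largest fold difference between MEFs and +MyoD among the 8 enzymes. MEFs had 158, 167 and 151 CPM, and +MyoD had 12.7, 12.8 and 17.9 CPM. With F/R/C the lines had 43.0, 25.8 and 19.8 CPM, under SP 46.7, 46.3 and 28.5 CPM, and under CP 70.0, 51.0 and 36.4 CPM. By CPM the 3 +MyoD libraries were the lowest of all 15, and line 1 stood above line 3 in each of the 3 F/R/C conditions. In TPM, Uhrf1 was at 11.23 to 19.17 in +MyoD and 11.15 to 23.02 with F/R/C, so that these groups overlapped. The log2FC against MEFs was -3.45 ± 0.31 in +MyoD (adjusted p = 4.1e-07), -2.43 ± 0.29 with F/R/C (adjusted p = 5.3e-06), -1.97 ± 0.29 with SP (adjusted p = 4.0e-05) and -1.60 ± 0.28 with CP (adjusted p = 0.00024). Against +MyoD it was higher by 1.03 with F/R/C (adjusted p = 0.017), 1.48 with SP (adjusted p = 0.0015) and 1.86 with CP (adjusted p = 0.00025). The call with F/R/C was lost without line 1 (adjusted p = 0.18), without line 2 (adjusted p = 0.15), and without the F/R/C library of line 1 (adjusted p = 0.099), the +MyoD library of line 1 (adjusted p = 0.054) or that of line 2 (adjusted p = 0.06). The call with SP was lost without line 2 (adjusted p = 0.071). With counts made from length-scaled TPM the differences of F/R/C and SP from +MyoD were 0.13 (adjusted p = 0.82) and 0.77 (adjusted p = 0.063). Over all 26 alternatives the log2FC of +MyoD against MEFs lay between -3.72 and -2.52 and was called in each. In +MyoD 56.7 ± 4.29% of the TPM of Uhrf1, but 11.3 ± 1.71% of its counts, fell on transcripts shorter than 1000 bases, against 7.68 ± 4.87% of TPM in MEFs.

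The fall of Uhrf1 was larger in log2FC than that of Dnmt1 in each transfected condition, and their ratio was taken within each library. The Uhrf1 to Dnmt1 ratio of CPM was 0.640 ± 0.0248 (SD, n = 3) in MEFs and 0.241 ± 0.0407 in +MyoD, and it was 0.343 ± 0.0768 with F/R/C, 0.379 ± 0.0491 under SP and 0.468 ± 0.0594 under CP. The lowest MEF library, at 0.613, stood above the highest transfected library, at 0.532. In TPM, mean Uhrf1 was 74.4 in MEFs, 14.7 in +MyoD, 16.7 with F/R/C, 25.5 under SP and 30.8 under CP. Mean Dnmt1 in TPM was 70.1, 20.6, 27.6, 35.3 and 36.9 in the same order. By these means the ratio would be lowest with F/R/C and not in +MyoD, so that its order and size depend on the measure. These ratios, and those to Mki67 and Pcna, are given as a description and were not tested.

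**Figure D2:**
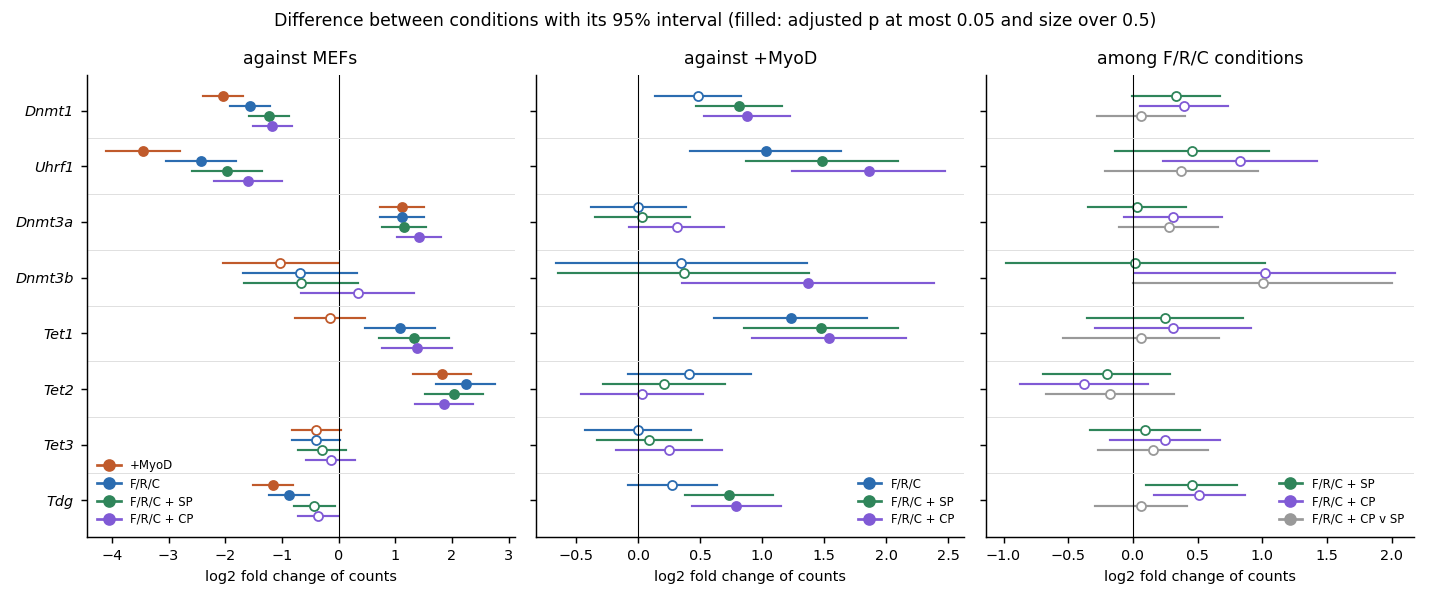
Difference of each of the 8 enzymes from MEFs and from +MyoD, as log2FC with its 95% interval from edgeR, for each condition and among the F/R/C conditions (3 panels, log2 fold change on the x axis), with filled points for calls. Dnmt1 and Uhrf1 lie below 0 in all 4 comparisons with MEFs and Dnmt3a and Tet2 above 0 in all 4, while no called difference from +MyoD lies below 0.

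The proliferation genes moved with this pair. Mki67, a marker of cycling cells, was at 276 ± 33.8 CPM in MEFs (SD, n = 3), 28.3 ± 1.61 in +MyoD, 54.3 ± 22.1 with F/R/C, 76.8 ± 23.2 under SP and 69.6 ± 17.4 under CP. All 18 genes of the G2 and M phase list were called lower than in MEFs in each of the 4 conditions, with a median log2FC of -3.31 in +MyoD and -1.94 with CP, and 15, 18 and 18 of them were called higher than in +MyoD with F/R/C, SP and CP. Of 20 S phase genes, 19 were called lower than in MEFs in +MyoD, F/R/C and SP, and 17 with CP, with medians of -2.63, -1.91, -1.53 and -1.30. Against +MyoD, 11, 17 and 19 of them were called higher, and 1, E2f1, lower (log2FC -0.67, -0.74 and -0.54). Of all genes, 18.0, 21.6, 20.1 and 20.6% were called lower than in MEFs in +MyoD, F/R/C, SP and CP. Against +MyoD, 10.9, 12.0 and 12.6% were called higher with F/R/C, SP and CP. The part of proliferation in the result for Dnmt1 and Uhrf1 was not tested.

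The ratio of each enzyme to a proliferation gene in the same library went different ways for Mki67 and for Pcna, the sliding clamp of DNA replication. Set against Mki67, Dnmt1 was higher in every transfected library than in MEFs. The Dnmt1 to Mki67 ratio of CPM was 0.905 ± 0.0677 in MEFs and 2.13 ± 0.227 in +MyoD, and it was 1.64 ± 0.355 with F/R/C, 1.43 ± 0.263 under SP and 1.60 ± 0.0837 under CP, so that the highest MEF library, at 0.970, lay under the lowest transfected library, at 1.13. The Dnmt1 to Pcna ratio was 1.73 ± 0.0804 in MEFs, 2.12 ± 0.372 in +MyoD and 1.68 ± 0.223 with F/R/C, groups that both overlap with MEFs, and 1.53 ± 0.0841 under SP and 1.45 ± 0.104 under CP, where every library lay below the lowest MEF library, at 1.67. The Uhrf1 to Mki67 ratio was 0.580 ± 0.0602 in MEFs, 0.510 ± 0.0814 in +MyoD, 0.545 ± 0.00557 with F/R/C and 0.534 ± 0.0780 with SP, groups that overlap, and 0.744 ± 0.0547 with CP, where the lowest library, at 0.691, stood above all libraries of the other conditions. The Uhrf1 to Pcna ratio was highest in MEFs, at 1.11 ± 0.0126, against 0.514 ± 0.129 in +MyoD, 0.566 ± 0.0480 with F/R/C, 0.580 ± 0.0950 under SP and 0.681 ± 0.114 under CP, and no transfected library was above 0.779. Over the 15 libraries the log2 CPM of Dnmt1 and Uhrf1 had a Pearson r of 0.989 with each other, and of 0.990 and 0.981 with Mki67. These correlations describe 5 groups that differ in their means and share 3 lines.

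Partners of the maintenance step were read from a list of 12 genes, of which 11 were tested. In +MyoD 7 were called lower than in MEFs and 1 higher, with a median log2FC of -1.34. Hells, a chromatin remodeller needed for methylation, had a log2FC of -3.39 (adjusted p = 7.4e-07), Cdca7l -3.30 (adjusted p = 1.7e-06), the replication clamp Pcna -2.30 (adjusted p = 8.2e-07) and the ligase Lig1 -2.22 (adjusted p = 4.1e-06), while Zbtb24, an activator of Cdca7, was higher by 0.56 (adjusted p = 0.011). Against MEFs, F/R/C had 7 lower and 1 higher, and both SP and CP had 8 lower and 1 higher, with medians of -1.27, -0.93 and -0.84. The gene called higher in these 3 conditions was Dnmt3l, the catalytically inactive partner of the Dnmt3 enzymes, at 2.51, 2.75 and 2.09 (adjusted p = 0.018, 0.012 and 0.043), from 36 counts over the 3 MEF libraries. Against +MyoD, 3, 5 and 5 of the list were called higher for F/R/C, SP and CP and none lower, with Cdca7l at 1.72, 2.38 and 2.42 and Pcna at 0.82, 1.25 and 1.38. Of all genes, 18.0, 21.6, 20.1 and 20.6% were called lower than in MEFs in +MyoD, F/R/C, SP and CP. In the same order 22.8, 26.6, 24.5 and 24.9% were called higher. Against +MyoD, 10.9, 12.0 and 12.6% were called higher with F/R/C, SP and CP. Pcna is also on the S phase list, so that these lists overlap.

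**Figure D3:**
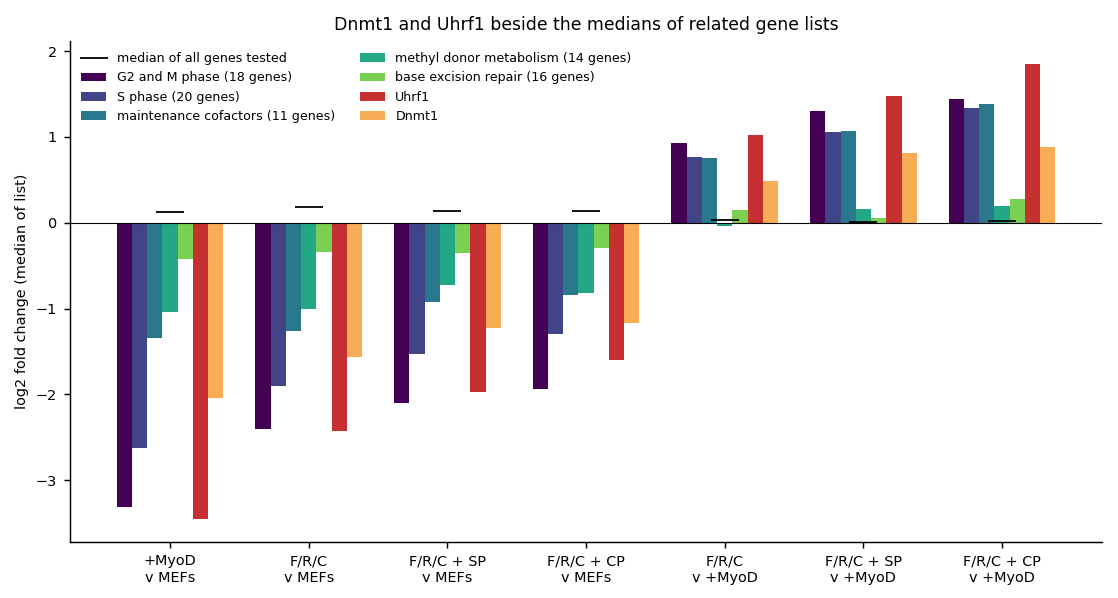
Log2 fold change of Uhrf1 and Dnmt1 (bars) beside the median log2 fold change of 5 gene lists (bars) and of all genes tested (black lines) in the 7 comparisons with MEFs or +MyoD. Both enzymes and the cell cycle and maintenance lists lie below 0 against MEFs and above 0 against +MyoD.

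The de novo enzymes differed from the maintenance pair and from each other. Dnmt3a (ENSMUSG00000020661.15, chromosome 12, 3806007 to 3914443, plus strand) was higher in all 4 transfected conditions than in MEFs. MEFs had 40.0, 32.5 and 28.2 CPM and +MyoD 75.2, 76.9 and 65.7 CPM. F/R/C gave 74.1, 72.5 and 71.3 CPM, SP 82.8, 86.1 and 53.9 CPM, and CP 100, 98.1 and 71.8 CPM. Every transfected library stood above every MEF library. The log2FC against MEFs was 1.11 ± 0.18 in +MyoD (adjusted p = 0.00013), 1.11 with F/R/C (adjusted p = 9.8e-05), 1.15 with SP (adjusted p = 8.7e-05) and 1.42 with CP (adjusted p = 1.2e-05), which is 2.16- to 2.68-fold. Among the 4 transfected conditions no difference of Dnmt3a was called, and the largest against +MyoD was 0.31 with CP (adjusted p = 0.24).

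The rise of Dnmt3a depended on how transcripts were counted. When counts were made from TPM scaled by average transcript length, the log2FC against MEFs was 0.12 in +MyoD (adjusted p = 0.77), 0.56 with F/R/C (adjusted p = 0.09), 0.49 with SP (adjusted p = 0.15) and 0.61 with CP (adjusted p = 0.069), and none was called. In TPM, Dnmt3a had 12.8 ± 3.10 in MEFs, 15.6 ± 3.53 in +MyoD, 22.4 ± 7.33 with F/R/C, 20.7 ± 6.26 under SP and 22.8 ± 0.539 under CP.

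The annotated starts of Dnmt3a on chromosome 12 include an upstream group, with position 3807030 for the long transcript Dnmt3a-201 and 3807160 for Dnmt3a-218, and an internal start, with 3891744 for Dnmt3a-203 and 3891728 for Dnmt3a-205, which is known to give a shorter isoform of the protein. The RefSeq windows at both starts are shown since the transcripts that begin there moved differently, chr12:3806910-3807209 and chr12:3891494-3891793, with no capitals because they hold none of the searched words.
Dnmt3a upstream start: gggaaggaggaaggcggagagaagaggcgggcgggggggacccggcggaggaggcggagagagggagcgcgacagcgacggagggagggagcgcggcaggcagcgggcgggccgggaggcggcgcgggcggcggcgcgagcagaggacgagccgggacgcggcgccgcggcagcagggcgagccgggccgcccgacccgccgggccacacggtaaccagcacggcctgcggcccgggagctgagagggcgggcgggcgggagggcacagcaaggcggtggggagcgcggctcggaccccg
Dnmt3a internal start: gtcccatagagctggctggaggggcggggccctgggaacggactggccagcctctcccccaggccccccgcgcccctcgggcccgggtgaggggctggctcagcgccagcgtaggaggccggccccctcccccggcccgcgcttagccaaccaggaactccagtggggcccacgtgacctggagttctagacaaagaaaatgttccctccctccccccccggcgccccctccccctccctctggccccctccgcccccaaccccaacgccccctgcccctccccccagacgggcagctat
The upstream window holds 47 CpG sites, more than 98.6% of all windows, and the internal window 18, more than 70.3% of them.

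The long transcripts from the upstream start were at 4.14 ± 1.11 TPM in MEFs (range 3.35 to 5.41), 12.0 ± 0.642 in +MyoD, 11.5 ± 0.145 with F/R/C, 11.6 ± 1.93 under SP and 13.7 ± 3.47 under CP. The lowest transfected library, at 9.36 TPM, was above the highest MEF library. The transcripts from the internal start were at 3.78 ± 1.58 TPM in MEFs, 0.632 ± 0.680 in +MyoD, 5.98 ± 2.41 with F/R/C, 4.45 ± 3.51 under SP and 7.23 ± 3.05 under CP. The +MyoD libraries, at most 1.35 TPM, did not overlap with those of any other condition, of which the lowest was 1.61 TPM. Dnmt3a-203 has 28 and Dnmt3a-205 16 stretches of 31 bases that no other transcript of the gene holds, so that this division rests largely on how kallisto shares out reads. For Dnmt1, the transcript Dnmt1-202 took 40.4 ± 0.717% of TPM in MEFs, 40.1 ± 6.26% in +MyoD, 22.3 ± 10.8% with F/R/C, 36.9 ± 7.84% under SP and 19.3 ± 16.7% under CP. In the CP library of line 2 it was listed at 0.00309%.

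**Figure D4:**
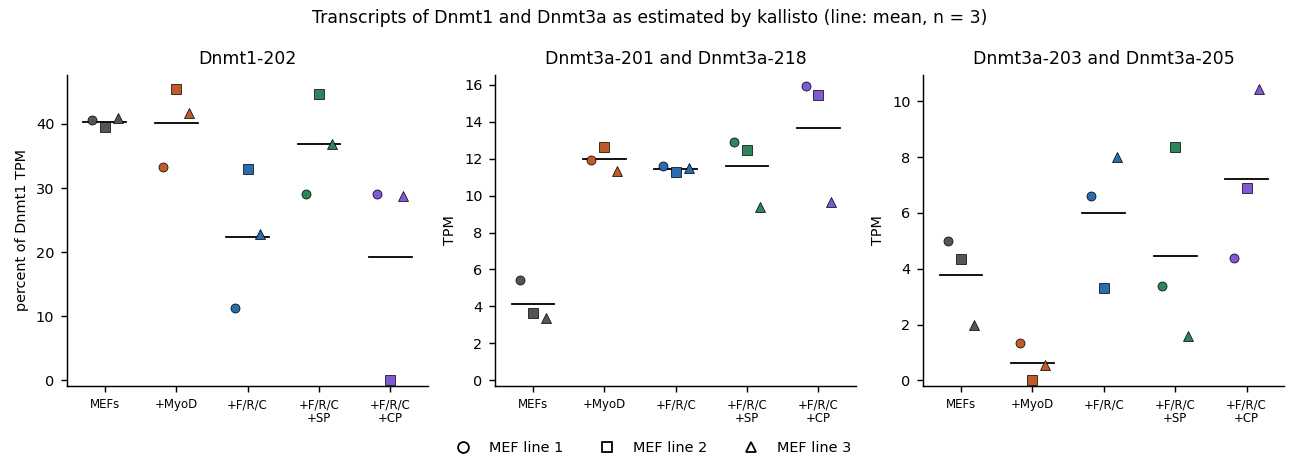
Share of Dnmt1-202 in the TPM of Dnmt1 (percent, left panel) and TPM of 2 pairs of Dnmt3a transcripts (middle and right panels) in each library of the 5 conditions, with a line at the mean (n = 3). The long Dnmt3a transcripts lie between 9.36 and 15.9 TPM in the transfected libraries and at most at 5.41 TPM in MEFs, and the Dnmt3a-203 and Dnmt3a-205 pair is lowest in +MyoD.

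Dnmt3b (ENSMUSG00000027478.15, chromosome 2, 153649450 to 153687730, plus strand) had the lowest TPM of the 3 methyltransferases in every library. Lines 1, 2 and 3 had 3.28, 3.34 and 3.48 CPM in MEFs, 1.03, 2.65 and 1.25 in +MyoD, 2.39, 2.67 and 1.22 with F/R/C, 2.22, 3.13 and 0.999 under SP, and 4.22, 5.71 and 2.82 under CP. These rest on 33 to 217 counts per library. The MEF libraries were close together, and line 2 was the highest in each transfected condition. Against MEFs no difference was called, with a log2FC of -1.03 ± 0.48 in +MyoD (adjusted p = 0.092), and with the line as a block that difference was -1.16 (adjusted p = 0.023) and was called, as it was without the +MyoD library of line 2, at -1.56 (adjusted p = 0.023). Dnmt3b was called higher with CP than in +MyoD, by 1.37 ± 0.48 (adjusted p = 0.047), a call kept in 10 of 26 alternatives (adjusted p from 0.0147 to 0.262). Several transcripts of Dnmt3b have no 31-base stretch of their own within the gene, so its isoforms are not described, and its close rodent copy Dnmt3c was listed with 1 count in all 15 libraries together.

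Of the TET enzymes, Tet2 (ENSMUSG00000040943.12, chromosome 3, 133463679 to 133545139, minus strand) had the widest change. In MEFs it was at 10.9, 7.08 and 8.11 CPM. In +MyoD the lines had 25.5, 22.6 and 44.7 CPM, with F/R/C 40.5, 37.9 and 45.0, under SP 39.4, 31.1 and 36.8, and under CP 32.7, 25.7 and 36.4. Each transfected library had more than 2 times the CPM of the highest MEF library, and among the transfected conditions F/R/C and CP did not overlap, F/R/C being higher, while the other pairs did. The log2FC against MEFs was 1.83 ± 0.24 in +MyoD (adjusted p = 1.8e-05), 2.24 with F/R/C (adjusted p = 2.0e-06), 2.04 with SP (adjusted p = 5.9e-06) and 1.86 with CP (adjusted p = 1.3e-05), which is 3.55- to 4.73-fold. No difference between transfected conditions was called, and the difference of F/R/C from +MyoD, 0.41 (adjusted p = 0.24), was called only without the +MyoD library of line 3, at 0.77 (adjusted p = 0.013).

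The promoter of Tet2, at chr3:133544341-133544640 and read along the minus strand, is shown for its CpG content, 57 sites, more than in 99.8% of the windows, with no searched word in capitals.
Tet2: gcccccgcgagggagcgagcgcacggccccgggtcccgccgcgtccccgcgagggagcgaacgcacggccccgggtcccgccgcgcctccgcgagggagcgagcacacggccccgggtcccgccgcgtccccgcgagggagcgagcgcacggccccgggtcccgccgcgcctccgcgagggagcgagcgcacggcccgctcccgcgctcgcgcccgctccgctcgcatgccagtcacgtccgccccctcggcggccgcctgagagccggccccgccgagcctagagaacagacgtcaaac
In +MyoD, 57.3 ± 3.69% of the TPM of Tet2 was given to transcripts not annotated as coding, most of them retained introns, against 27.9 ± 15.2% in MEFs, 46.5 ± 3.42% with F/R/C, 38.2 ± 4.64% under SP and 53.3 ± 13.5% under CP. By estimated counts, which weight long transcripts more, these shares were 26.2%, 13.6%, 21.2%, 14.1% and 28.4% in the same order. The gene sum of Tet2 is thus not a measure of its coding transcripts alone.

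Tet1 (ENSMUSG00000047146.17, chromosome 10, 62804570 to 62908996, minus strand) was called higher in each condition with F/R/C, against MEFs and against +MyoD. MEFs had 3.98, 3.20 and 3.07 CPM and +MyoD 3.67, 3.17 and 2.40 CPM, groups that overlap (log2FC -0.15 ± 0.29, adjusted p = 0.72). With F/R/C the lines had 6.22, 6.76 and 8.66 CPM, under SP 11.4, 8.91 and 5.36, and under CP 10.5, 7.53 and 8.84. All 9 libraries with F/R/C were above all 6 without. The log2FC was 1.08, 1.33 and 1.39 against MEFs (adjusted p = 0.0054, 0.0014 and 0.00095) and 1.23, 1.48 and 1.54 against +MyoD (adjusted p = 0.0067, 0.0018 and 0.0012) with F/R/C, SP and CP. Libraries held 81 to 444 counts of Tet1. With counts made from length-scaled TPM all 6 calls were lost (adjusted p from 0.19 to 0.46). Without line 2 the call of F/R/C was lost against MEFs (adjusted p = 0.06) and +MyoD (adjusted p = 0.077), and likewise without line 3 (adjusted p = 0.068 and 0.089).

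Tet3 (ENSMUSG00000034832.15, chromosome 6, 83362373 to 83459084, minus strand) was not called in any of the 10 comparisons. Its levels were 59.8, 74.2 and 71.9 CPM in MEFs, 68.4, 43.9 and 44.6 in +MyoD, 49.6, 57.3 and 49.8 with F/R/C, 65.6, 57.4 and 44.0 under SP, and 61.0, 76.4 and 49.0 under CP. The groups overlapped except for F/R/C, all of whose libraries lay below MEFs, and the log2FC against MEFs lay between -0.39 and -0.14. Without line 1, Tet3 was called lower in +MyoD, at -0.77 (adjusted p = 0.01), and with SP, at -0.56 (adjusted p = 0.045). Without the +MyoD library of line 1 alone the difference in +MyoD was -0.64 (adjusted p = 0.013).

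Tdg (ENSMUSG00000034674.18, chromosome 10, 82629828 to 82650799, plus strand), the glycosylase that completes TET-led demethylation, was called lower than in MEFs in +MyoD and with F/R/C. Lines 1, 2 and 3 had 74.7, 95.7 and 91.2 CPM in MEFs, 45.9, 33.3 and 38.1 in +MyoD, 54.9, 41.4 and 45.7 with F/R/C, 73.5, 58.9 and 62.2 under SP, and 81.2, 65.0 and 56.7 under CP. MEFs were above +MyoD, F/R/C and SP without overlap, and CP overlapped with MEFs. The log2FC against MEFs was -1.16 ± 0.17 in +MyoD (adjusted p = 4.5e-05) and -0.88 with F/R/C (adjusted p = 0.00038). With SP it was -0.43 (adjusted p = 0.045) and with CP -0.37 (adjusted p = 0.081), neither called. Both were called without line 1, at -0.66 and -0.64, and without their own library of line 1, at -0.56 and -0.54, and SP also without the MEF library of line 1, at -0.53. Against +MyoD, Tdg was higher by 0.73 with SP (adjusted p = 0.0050) and 0.79 with CP (adjusted p = 0.0026), and the SP call was lost without line 2 (adjusted p = 0.059) and without line 3 (adjusted p = 0.061). The 3′ end of Tdg overlaps Glt8d2 on the opposite strand, and whether the counting used the strand is not stated.

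Across the comparisons with +MyoD, 2 of the 8 enzymes were called higher and 0 lower with F/R/C, beside 19.3% of all genes (10.9% higher, 8.39% lower). For SP 4 were called higher and 0 lower, beside 20.9% (12.0% higher, 8.93% lower), and for CP 5 higher and 0 lower, beside 22.6% (12.6% higher, 9.98% lower). The libraries did not overlap for 3, 4 and 5 of the 8 enzymes and for 33.5%, 34.1% and 38.1% of all genes. The 2 were Uhrf1 and Tet1, Dnmt1 and Tdg were the others under SP, and Dnmt3b was added under CP. The medians over the 8 were 0.38, 0.55 and 0.84, and those of all genes 0.03, 0.01 and 0.02. These comparisons share the +MyoD libraries.

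Adding SP or CP to F/R/C changed none of the 8 enzymes by the call of edgeR, and DESeq2 called none either. With SP, 0% of all genes were called against F/R/C, with CP 0.0362%, and 0.197% for CP against SP, which is 0, 7 and 38 genes, where DESeq2 called 66, 201 and 100. With the line as a block, edgeR called 37 genes for CP against F/R/C. At an unadjusted p under 0.05, 1 of the 8 differed with SP, 4 with CP and 0 between CP and SP, beside 1280, 1529 and 775 of all genes. The libraries did not overlap for 1, 3 and 0 of the 8, and for 14.2%, 17.0% and 11.4% of all genes. The 4 with CP were all higher, Uhrf1 by 0.83 (unadjusted p = 0.0097), Tdg by 0.52 (unadjusted p = 0.0074), Dnmt1 by 0.40 (unadjusted p = 0.027) and Dnmt3b by 1.02 (unadjusted p = 0.047), and the 1 with SP was Tdg, by 0.45 (unadjusted p = 0.016). The 95% intervals of these differences were 0.23 to 1.43 for Uhrf1, 0.16 to 0.87 for Tdg, 0.05 to 0.74 for Dnmt1 and 0.02 to 2.03 for Dnmt3b with CP, and 0.10 to 0.81 for Tdg with SP. For CP against SP the 95% intervals were -0.28 to 0.41 for Dnmt1, -0.22 to 0.97 for Uhrf1, -0.29 to 0.42 for Tdg, -0.10 to 0.66 for Dnmt3a and -0.67 to 0.32 for Tet2. Those of Tet1 and Tet3 were -0.54 to 0.67 and -0.27 to 0.58. Dnmt3b had the largest difference of CP from SP among the 8, higher with CP. Its interval was -0.00147 to 2.007 (unadjusted p = 0.0503), so that a large difference is not excluded. A p that misses the threshold does not show that the compounds act alike.

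**Figure D5:**
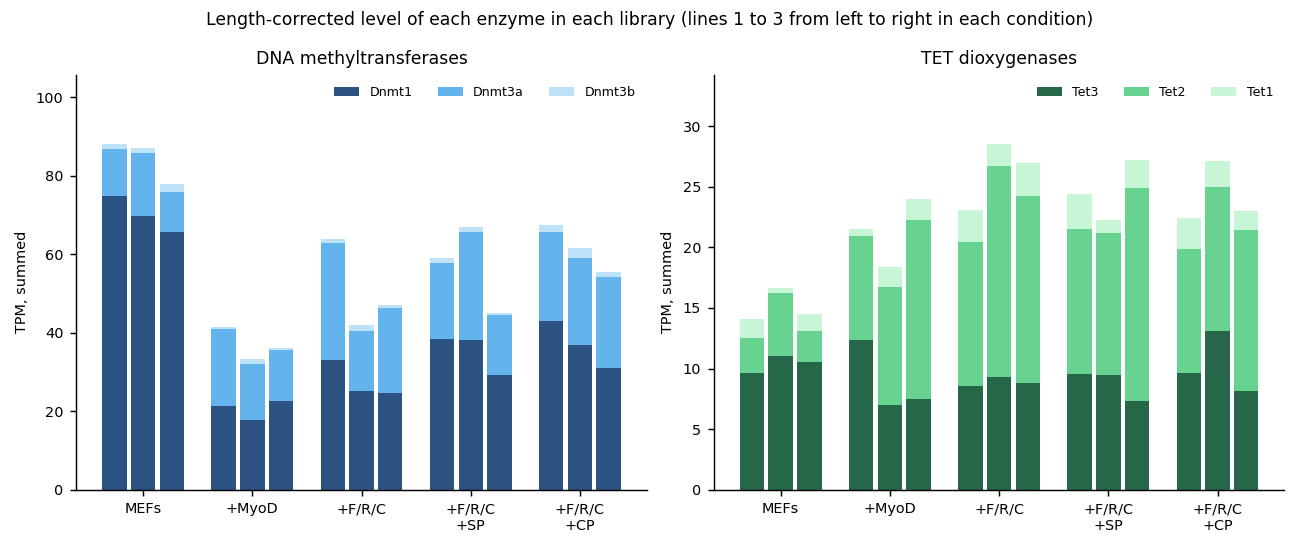
Stacked bars of the level in TPM of the 3 methyltransferases (left panel) and the 3 TET enzymes (right panel) in each of the 15 libraries, with lines 1 to 3 from left to right in each condition. Dnmt1 makes up 83.0% of the left bars in MEFs on average, and Tet2 49.0 to 56.6% of the right bars in the transfected conditions.

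The balance of the families was compared per length, in TPM, where genes of different size can be set beside each other. The methyltransferases summed to 84.5 ± 5.64 TPM in MEFs, 37.0 ± 4.16 in +MyoD, 50.9 ± 11.5 with F/R/C, 57.0 ± 11.1 under SP and 61.6 ± 5.99 under CP. The TET enzymes summed to 15.1 ± 1.41 TPM in MEFs, 21.3 ± 2.81 in +MyoD, 26.2 ± 2.79 with F/R/C, 24.6 ± 2.49 under SP and 24.2 ± 2.56 under CP. The ratio of the sums was 5.63 ± 0.567 in MEFs and 1.75 ± 0.219, 1.99 ± 0.684, 2.36 ± 0.679 and 2.57 ± 0.392 in the transfected conditions, and the lowest MEF library, at 5.23, was above the highest transfected library, at 3.01. Dnmt1 took 83.0 ± 2.70% of the methyltransferase sum in MEFs and 54.7 to 62.4% on average in the transfected conditions, where the share of Dnmt3a was 35.96 to 43.3% against 15.04 ± 3.03% in MEFs. Tet3 took 69.1 ± 3.14% of the TET sum in MEFs and Tet2 22.9 ± 7.12%, while Tet2 took 49.0 to 56.6% on average in the transfected conditions. Tet1 held 6.47 to 9.28% on average in the 5 conditions, and 2.80 to 12.1% in single libraries. These sums include transcripts not annotated as coding.

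The genes that the eraser pathway relies on were called in both directions. Of 16 genes of base excision repair and other demethylation factors, 2, 3, 3 and 3 were called higher than in MEFs and 5, 7, 5 and 4 lower in +MyoD, F/R/C, SP and CP. Over all genes, 22.8, 26.6, 24.5 and 24.9% were called higher in these comparisons and 18.0, 21.6, 20.1 and 20.6% lower. Beside such shares, the number called in a list of this size says little. The glycosylases split, with Neil1 at a log2FC of 1.90 in +MyoD (adjusted p = 9.0e-05) and 1.71 with CP (adjusted p = 0.00019), Neil2 at 1.56 and 1.84 (adjusted p = 0.019 and 0.0067), and Ung at -2.42 and Neil3 at -2.27 in +MyoD (adjusted p = 6.6e-05 and 8.0e-05). Parp1, a sensor of strand breaks, fell by 1.57 on the log2 scale in +MyoD (adjusted p = 1.5e-07) and was higher by 1.36 with CP than in +MyoD (adjusted p = 3.6e-06). Of 5 TET recruiters and regulators tested, 3 were called higher and 2 lower in +MyoD, and 1 higher and 2 lower in each F/R/C condition. Cxxc5, a CXXC protein that binds Tet2, was higher by 1.09 in +MyoD (adjusted p = 0.00025) and 0.95 with CP (adjusted p = 0.00072), and Qser1, which limits de novo methylation, was lower by a log2FC of -1.09 in both (adjusted p = 6.1e-05 and 5.0e-05).

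The TET reaction uses 2-oxoglutarate. Of 9 genes on a list of TET cofactor metabolism, 2, 2, 3 and 2 were called higher than in MEFs and 3, 3, 2 and 2 lower. Of all genes, 22.8, 26.6, 24.5 and 24.9% were called higher in these comparisons and 18.0, 21.6, 20.1 and 20.6% lower. Slc23a2 was called with SP only, at 0.57 (adjusted p = 0.023). Idh1, a source of 2-oxoglutarate in the cytosol, was higher by 1.22 in +MyoD (adjusted p = 0.00011) and 1.75 with SP (adjusted p = 3.6e-06), and Idh3a of the citric acid cycle was lower by a log2FC of -1.35 in +MyoD (adjusted p = 1.4e-06). No gene of this list was called against +MyoD in any F/R/C condition. The methyl donor list holds genes that make, use or recycle S-adenosylmethionine. It had 9, 8, 7 and 8 of 14 tested genes called lower than in MEFs, with medians of -1.05, -1.004, -0.72 and -0.81. Mthfd1, Shmt1 and Ahcy had a log2FC of -1.99, -3.20 and -1.58 in +MyoD (adjusted p = 3.4e-07, 1.3e-06 and 2.6e-06). The 1 gene of that list called higher, Gnmt, had 0 counts in all MEF libraries and 18 to 39 in a transfected condition, and no fold is given.

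Readers and the histone enzymes that guide Dnmt3 completed the pathway. Of 8 methyl-CpG readers, 1, 2, 1 and 1 were called higher than in MEFs and 1, 3, 1 and 3 lower. The shares of all genes were 22.8, 26.6, 24.5 and 24.9% higher and 18.0, 21.6, 20.1 and 20.6% lower. Zbtb4, which binds methylated CpG, was higher by 2.42 in +MyoD (adjusted p = 2.1e-07) and 1.27 with CP (adjusted p = 5.8e-05), and lower with CP than in +MyoD, at -1.15 (adjusted p = 0.00043). Of 9 H3K36 and H3K4 enzymes, 4 were lower and 0 higher in each transfected condition, with medians of -0.58, -0.61, -0.39 and -0.50. Ezh2, the H3K27 methyltransferase kept in that list, was at -3.16 in +MyoD (adjusted p = 2.6e-08) and Nsd2, which writes H3K36 methylation, at -2.62 (adjusted p = 3.4e-07). Both were higher with CP than in +MyoD, at 1.67 (adjusted p = 2.6e-05) and 0.85 (adjusted p = 0.0093).

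Germline genes known to be silenced by promoter methylation were mostly at the limit of detection. Of 18, only 5 passed the filter, and the 18 summed to 0.871 to 1.59 TPM in MEFs and at most 7.74 TPM in any library. Brdt, a testis bromodomain gene, was at 0.166 ± 0.112 TPM in MEFs, 1.24 ± 0.675 in +MyoD, 3.21 ± 1.21 with F/R/C, 2.47 ± 1.01 under SP and 3.09 ± 0.764 under CP, and its log2FC was 2.48 in +MyoD (adjusted p = 0.0054) and 3.80 with CP (adjusted p = 0.00022). Asz1, a gene of germ cell transposon silencing, had 0 counts in MEFs and in +MyoD and 57, 28 and 20 counts over the 3 libraries with F/R/C, SP and CP, where it was called, and no fold is given. No other gene of the list was called in these comparisons.

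For each enzyme the 3 genes with the most similar pattern over the 15 libraries were taken by Pearson r of log2 CPM. Those of Dnmt1 were Ccna2 (0.992), Top2a (0.992) and Mybl2 (0.991), and those of Uhrf1 were Ccna2 (0.997), Ezh2 (0.992) and Top2a (0.992), all known to be high in cycling cells. Tdg stood next to Hmgb3 (0.971), Chtop (0.958) and Rab39b (0.950), Dnmt3a to Pknox2 (0.964), Rem1 (0.954) and Epha3 (0.944), and Tet2 to Ank3 (0.981), Steap4 (0.980) and Gda (0.979). Tet1 was most like Fam122b (0.961), Arhgap32 (0.945) and Vash1 (0.943). Dnmt3b and Tet3 had weaker neighbours, led by Pcbp1 (0.910) and Lef1 (0.863). Among the 8 enzymes themselves, Tdg had an r of 0.906 with Uhrf1 and 0.898 with Dnmt1, Dnmt3a had 0.807 with Tet2, and Dnmt1 had -0.785 with Tet2. The libraries share lines and group means, so that these values are a description of the 5 conditions.

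Taking the order of the conditions for each enzyme, only some neighbours were separated. For Dnmt1 and Uhrf1 the order was MEFs, CP, SP, F/R/C and +MyoD, and neighbours within CP, SP and F/R/C overlapped. For Dnmt3a and Tet2 only the step between MEFs and the rest was called, and for Tet1 only the step between F/R/C and MEFs. For Tdg the order was again MEFs, CP, SP, F/R/C and +MyoD, with no neighbouring step called. For Tet3 and Dnmt3b no step between neighbours was called. Of all 80 pairs of enzyme and comparison 32 were called, 22 of them higher, with Uhrf1 in 7 of 10 comparisons, Dnmt1 and Tet1 in 6, Dnmt3a, Tet2 and Tdg in 4, Dnmt3b in 1 and Tet3 in 0. Of all genes, 40.8 to 48.2% were called against MEFs, 19.3 to 22.6% against +MyoD and 0 to 0.197% among the F/R/C conditions. The 10 comparisons reuse the same libraries, so that the pairs are not separate outcomes.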

How the data were processed

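Bulk poly-A RNA from 15 MEF cultures was sequenced by the authors from stranded, single-end libraries. The submitters' processing notes name bcl2fastq 2.20, fastp 0.20.0, kallisto 0.46.1 and GRCm38.p6, and whether kallisto used the strand is not stated. The deposited files hold, per library and transcript, estimated counts, in which reads shared by transcripts are divided and nothing is normalized, and TPM, which the authors' kallisto run scaled by effective transcript length. Each table lists 121843 transcripts, of which 121104 matched the gene annotation by identifier. The other 739, with 0.236 to 0.327% of counts, were left out. Totals of 29393872 to 41885769 per library bound the precision of low genes such as Dnmt3b, and intervals on counts do not cover the estimation by kallisto.

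The estimated counts of a gene's transcripts were added up and the sums rounded to integers. edgeR 4.0.16 (R 4.3.3, limma 3.58.1) was run with TMM, filterByExpr by group (minimum count 10, minimum total 15) and the quasi-likelihood test, in 1 model over the 15 libraries whose only term was the condition, with 10 residual degrees of freedom and a biological coefficient of variation of 0.35. Groups and lines came from the sample labels. A gene was called at a Benjamini-Hochberg adjusted p of at most 0.05 and an absolute log2 fold change over 0.5. Levels are CPM with TMM, and log2 CPM used a prior count of 2. Alternatives were DESeq2 1.42.0, other scalings and filters, counts from length-scaled TPM, only the 2 groups compared, the line as a block, and each library or line left out. The fit was also run on simulated counts, with genes changed in MyoD + F/R/C only and no line effect. That simulation does not assess the pairing by line. Tables and figures used Python 3.11.15, numpy 2.4.6, pandas 2.3.3 and matplotlib 3.10.9.

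The same 3 MEF lines, each from 1 embryo, stand behind all conditions, so the replicate number pairs the libraries. The deviations of libraries from their group means correlated within a line at 0.074 on average (30 pairs, -0.0038 to 0.237) and between lines at -0.037 (60 pairs). No pair of replicates was a duplicate, with a chi-square per degree of freedom of at least 18.1.

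The 8 enzymes and the 18 other gene lists were chosen with earlier results of these data known. Named are all 8 enzymes, Mki67 and Pcna, of each list up to 4 genes per comparison with the smallest p and those that moved against their list, and for each enzyme the 3 genes of highest Pearson r at a mean of 1 CPM or more. Promoter windows were taken from RefSeq (GRCm38.p6), where all 8 enzymes had at least 1 entry. Protein sequences were not used here.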

Additional observations from a re-analysis of the deposited data

How the results depend on the processing

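Of the 80 pairs of enzyme and comparison, 17 were called in the fit reported and in all 26 alternatives. Over 2080 recomputed log2 fold changes, 2016 kept their side of the threshold, 42 lost a call and 22 gained it. No called value changed sign, and 67 values called in neither fit did. Counts made from length-scaled TPM changed the number of enzymes called against MEFs to 4 for +MyoD, 4 for MyoD + F/R/C, 3 for MyoD + F/R/C + SP and 3 for MyoD + F/R/C + CP, and to 0, 2 and 3 for F/R/C, SP and CP against +MyoD, since Dnmt3a, Tet1, and in part Uhrf1 and Dnmt3b lost their calls, and the cause was not tested. With only the 2 groups compared in the fit, 1 enzyme was called for F/R/C against +MyoD. With a library or a line left out, 5 to 6 were called for +MyoD, 5 to 6 for F/R/C, 5 to 7 for SP and 5 to 6 for CP against MEFs, 0 to 3, 1 to 4 and 4 to 5 for F/R/C, SP and CP against +MyoD, and 0 among the F/R/C conditions. The low counts for F/R/C against +MyoD, of 0 or 1, came without line 1, without line 2, without the +MyoD library of line 1 or 2 and without the F/R/C library of line 1, and that of 1 for SP without line 2. With the replicate block (the MEF line), Dnmt3b in +MyoD against MEFs was called, at -1.16, and no other call among the 8 enzymes changed, while the genes called for CP against F/R/C rose from 7 to 37.

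The share by estimated counts of Dnmt3a-201 and Dnmt3a-218 was 75.2% in MEFs, 93.7% in +MyoD, 84.2% with F/R/C, 88.4% under SP and 80.0% under CP, where by TPM it was 33.6, 78.8, 54.99, 57.7 and 60.3%. That of Dnmt3a-203 and Dnmt3a-205 was 16.4% in MEFs, 2.76% in +MyoD, 14.3% with F/R/C, 9.996% under SP and 18.6% under CP (29.4, 3.69, 26.8, 19.4 and 31.6% by TPM), and that of Tet2 transcripts not annotated as coding 13.6% in MEFs, 26.2% in +MyoD, 21.2% with F/R/C, 14.1% under SP and 28.4% under CP (27.9, 57.3, 46.5, 38.2 and 53.3% by TPM). Over all genes, calls ranged from 2209 to 4324 for F/R/C, 2510 to 4674 for SP and 2778 to 4953 for CP against +MyoD, for which 3735, 4049 and 4368 were reported, and from 0 to 66 for SP against F/R/C, 0 to 201 for CP against F/R/C and 0 to 100 for CP against SP, where the highest counts, 66, 201 and 100, came from DESeq2. Scaling by total counts moved the median log2 fold change of all genes by up to 0.243.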
